A study of Mus musculus with 8 samples.

Results

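Ms4a3, Ms4a4b, Ms4a4c, Ms4a6b, Ms4a6c, Ms4a6d and Ms4a7 are 7 of the 11 genes of the Ms4a family among the 13744 genes of a deposited expression table, and they were taken by name from it. The table holds RNA sequencing of bone marrow monocytes sorted as Ly6C-high, the classical kind, from mice, in 8 libraries, 2 for each of 4 genotypes. These are Irf2 KO, lacking the interferon regulatory factor Irf2, Nr4a1 KO, lacking the orphan nuclear receptor Nr4a1, Bcl6 cKO, a conditional deletion of the transcriptional repressor Bcl6, and wild type. The series title names Bcl6 and Irf2, with Notch2, in the development of nonclassical monocytes, so each knockout was set against wild type and the knockouts against one another. The labels give no age or sex of the mice, no deleted exons and no Cre driver for the conditional allele, nor do they state that the 2 libraries of a genotype came from separate mice, so p-values measure the spread between libraries only.

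MS4A genes encode small proteins that cross the membrane with 4 hydrophobic segments, the fold for which the family (membrane-spanning 4-domains, subfamily A) is named, and several associate with immune receptors and adjust their signalling. The family's best known members, MS4A1 (CD20) of B cells and MS4A2 (the beta chain of the high-affinity IgE receptor) of mast cells, lie in the same gene cluster as the myeloid members. In mice Ms4a3 is switched on in granulocyte-monocyte progenitors and has been used to trace their progeny, and Ms4a7 is a marker of tissue macrophages.

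All 7 members lie on chromosome 19 of the mouse genome (GRCm38) within 320 kb, at chr19:11321039-11640851 by the GENCODE annotation, with Ms4a7 at one end and Ms4a3 at the other. Ms4a4b and Ms4a4c are close copies whose coding sequences were 91.7% identical, and Ms4a6b was 80.1% identical to Ms4a6d and 74.7% to Ms4a6c, whereas pairs across these groups ran from 46.3% to 55.2%. RefSeq promoters were matched for 6 of the 7 members. The stretches before the starts are shown because each pair of copies below holds an identical run there. Upstream of Ms4a4b (chr19:11443308-11443552, plus strand, RefSeq promoter on GRCm38.p6) and Ms4a4c (chr19:11407411-11407660, plus strand), 68.8% of aligned positions were the same, and capitals mark the longest identical run, 20 bases. Upstream of Ms4a6b (chr19:11518309-11518452, plus strand) and Ms4a6c (chr19:11469118-11469365, plus strand), capitals mark an identical run of 48 bases, although over the whole windows 45.8% of aligned positions were the same, no more than the 50% of Ms4a4c and Ms4a6b, which are not close copies. It began 118 bases before the start of Ms4a6b and 49 before that of Ms4a6c. Where an annotated exon begins inside a window, the sequence is cut there. Thus 12 bases of the run are printed for Ms4a6b and 47 for Ms4a6c. The Ms4a4c window holds no such exon and is printed whole, at 250 bases. Starts here are those of the RefSeq promoters. By GENCODE the Ms4a4c and Ms4a6b genes begin earlier, at 11404770 and 11516512, so their windows lie inside the annotated genes.
Ms4a4b: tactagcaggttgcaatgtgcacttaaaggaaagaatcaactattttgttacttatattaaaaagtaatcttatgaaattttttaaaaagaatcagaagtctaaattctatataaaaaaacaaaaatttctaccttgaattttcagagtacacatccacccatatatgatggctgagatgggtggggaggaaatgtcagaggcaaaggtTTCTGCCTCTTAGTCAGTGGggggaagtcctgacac
Ms4a4c: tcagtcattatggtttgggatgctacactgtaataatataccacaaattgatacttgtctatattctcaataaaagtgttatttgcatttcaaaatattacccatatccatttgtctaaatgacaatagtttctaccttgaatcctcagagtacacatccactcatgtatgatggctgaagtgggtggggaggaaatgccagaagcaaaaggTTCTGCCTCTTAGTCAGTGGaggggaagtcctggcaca
Ms4a6b: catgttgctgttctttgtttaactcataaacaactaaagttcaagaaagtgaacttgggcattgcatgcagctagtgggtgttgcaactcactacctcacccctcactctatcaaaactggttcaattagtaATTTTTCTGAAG
Ms4a6c: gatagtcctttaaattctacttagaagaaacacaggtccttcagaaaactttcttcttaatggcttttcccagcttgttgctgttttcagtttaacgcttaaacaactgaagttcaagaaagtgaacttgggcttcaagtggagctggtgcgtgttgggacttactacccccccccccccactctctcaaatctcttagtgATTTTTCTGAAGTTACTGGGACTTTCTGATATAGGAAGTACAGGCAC

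The upstream stretch of Ms4a3, the member that differed most from wild type, is given beside them (chr19:11640852-11641101, minus strand, RefSeq promoter on GRCm38.p6). Its 250 bases before the start shared no identical run longer than 12 bases, read along each gene's own strand, with those of the other matched members. Ms4a6d, which had no matched promoter, was not compared.
Ms4a3: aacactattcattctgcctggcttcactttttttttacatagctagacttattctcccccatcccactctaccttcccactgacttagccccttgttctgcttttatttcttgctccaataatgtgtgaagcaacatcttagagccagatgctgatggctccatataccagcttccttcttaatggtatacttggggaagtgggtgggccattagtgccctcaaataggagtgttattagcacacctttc

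Windows from 250 bases before to 50 after each start were searched on both strands for 5 short elements. These were an IRF element of GAAA, any 2 bases and GAAA, found in 3.44% of 32851 RefSeq promoters, and the NR4A element AAGGTCA, found in 4.72%. The others were the BCL6 element TTCCTAGAA in 0.411%, the PU.1 element GAGGAAGT in 3.20%, and the C/EBP element TTGCNNAA in 10.8%. Among the 7 promoters of the 6 matched members (Ms4a7 has more than one), the only match was a C/EBP element at bases 41 to 48 after the start of Ms4a3. A match is a run of letters and not a bound site.

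The summed reads per library ran from 46617756 to 62633123, and 1 CPM, a read count scaled to a library total of 1e+06, stood for 47.9 to 61.8 reads. Bcl6 itself had 92.4 and 84.4 CPM in the libraries labelled Bcl6 cKO, above the 25.3 and 24.9 CPM of wild type (log2 fold change 1.81 ± 0.16, limma adjusted p = 0.00233). Irf2 reads stood at 90.2 and 103.5 CPM in Irf2 KO against 144.7 and 141.01 CPM in wild type, and Nr4a1 reads at 4.99 and 7.90 CPM in Nr4a1 KO against 24.9 and 39.1 CPM in wild type. Nr4a1 was also low in Irf2 KO, at 6.04 and 5.72 CPM (log2 fold change over wild type -2.41 ± 0.27, limma adjusted p = 0.00163), within the range of the Nr4a1 KO libraries. Reads outside a deleted exon would still be counted, so none of the 3 targeted genes is a full check of its label. The cause of the higher Bcl6 reads in the libraries labelled Bcl6 cKO was not tested. The classical monocyte genes Ly6c2 and Ccr2 were abundant throughout, with Ly6c2 at 2884 CPM or more and Ccr2 at 911 CPM or more in every library. The 15 listed classical monocyte genes together summed to 23590 to 28431 CPM in Irf2 KO against 37360 to 42813 CPM in wild type. That sum rests largely on Lyz2, whose mean log2 CPM was 13.57 in Irf2 KO and 14.60 in wild type. Of the 15 genes, 6 were lower (limma adjusted p under 0.05) and 1 was higher. Among the lower were Thbs1 (-3.84 ± 0.53), Fn1 (-2.13 ± 0.30), Cd177 (-1.87 ± 0.22) and Lyz2 (-1.04 ± 0.12). Of all 12752 tested genes, 12.3% were lower and 9.26% higher in this comparison. In these bulk libraries fewer cells of a type and less RNA per cell cannot be told apart.

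Compared per length of the main transcript, as RPKM, the CPM divided by the transcript's length in kilobases, Ms4a6c and Ms4a4c made up most of the Ms4a signal in wild-type monocytes. The wild-type levels averaged 605 RPKM for Ms4a6c, 324 for Ms4a4c, 133 for Ms4a6b and 95.5 for Ms4a6d. Ms4a3, Ms4a4b and Ms4a7 followed at 17.2, 13.9 and 4.19 RPKM. Levels per length of Ms4a3 (15.4 and 18.9 RPKM) and Ms4a4b (15.6 and 12.2 RPKM) overlapped between the 2 wild-type libraries, and each of the other neighbours in this order was separate in both. Ms4a6c held 37.4% and 31.9% of the summed level in Irf2 KO, 53.1% and 41.7% in Nr4a1 KO, 53.3% and 50.5% in the libraries labelled Bcl6 cKO, and 52.7% and 48.7% in wild type. The Irf2 KO shares of Ms4a6c were below all 6 others. Ms4a3 held 4.63% and 8.63% of the summed level in Irf2 KO, 3.22% and 3.65% in Nr4a1 KO, 2.27% and 1.93% in the libraries labelled Bcl6 cKO, and 1.29% and 1.58% in wild type, an order of groups with no overlap.

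**Figure D1:**
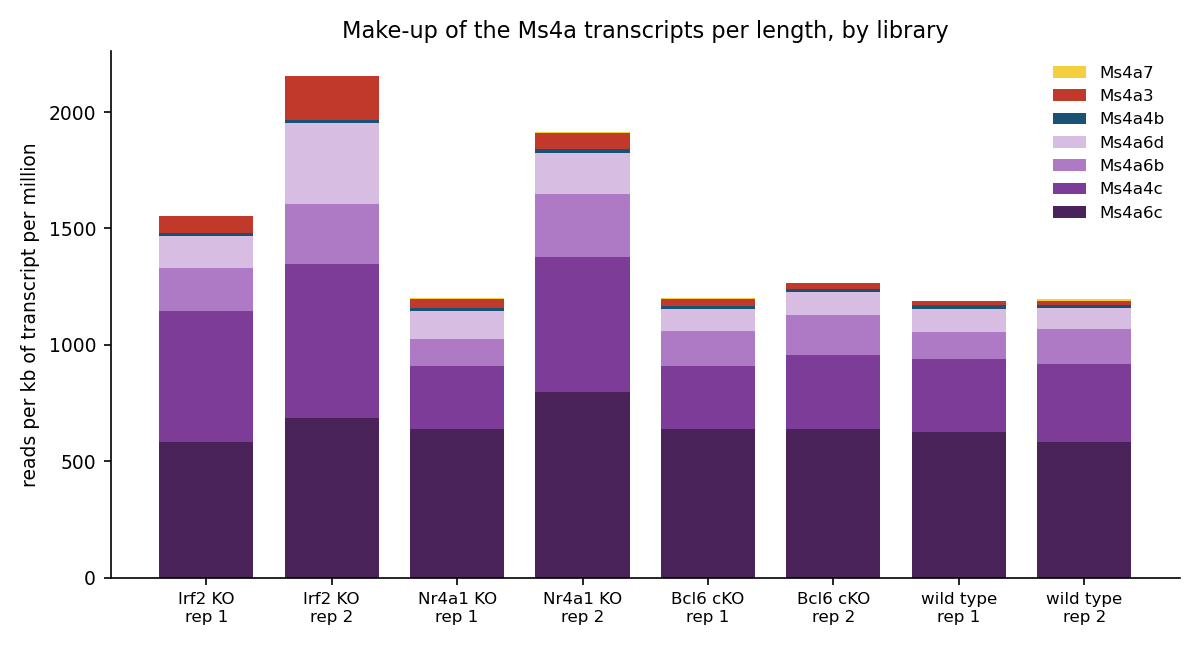
RPKM by the main transcript, stacked over the 7 Ms4a members, for each of the 8 libraries. Ms4a6c (bottom) and Ms4a4c fill most of every bar, the wild-type bars hold Ms4a6c at 627 and 583 RPKM, and the Ms4a3 segment is tallest in Irf2 KO, at 71.9 and 186 RPKM.

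The question of each comparison with wild type was which Ms4a transcripts changed when the factor was missing. In Irf2 KO monocytes Ms4a3 and Ms4a6d were higher than in wild type and Ms4a7 was lower, so 3 of the 7 members passed the threshold (limma, Benjamini-Hochberg adjusted p under 0.05 over 12752 tested genes). Of all tested genes 21.6% passed in this comparison, 9.26% as higher and 12.3% as lower. The members' median log2 fold change was 0.72, beside -0.04 over all tested genes. All 7 members stood above the filter of a mean of 1 CPM.

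Ms4a3, the progenitor-associated member, had 72.6 and 188 CPM in Irf2 KO, 39.1 and 70.7 CPM in Nr4a1 KO, 27.5 and 24.8 CPM in the libraries labelled Bcl6 cKO, and 15.5 and 19.1 CPM in wild type. Both Irf2 KO libraries lay above all 6 others, and both Nr4a1 KO libraries lay above the 4 that remained. The log2 fold change of Irf2 KO over wild type was 2.76 ± 0.41 (SE, 2 libraries each, limma adjusted p = 0.00387), a 6.77-fold difference with 95% limits of 1.83 to 3.69 on the log2 scale. It passed the threshold in all 17 alternative settings, with an adjusted p of 0.0237 at most and log2 fold changes of 2.07 to 3.45. The 2 Irf2 KO libraries themselves were 1.37 log2 units apart, a gap at least matched by 1.47% of tested genes in this genotype, whose median gap was 0.17.

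Ms4a6d, which in mouse macrophages has been reported to act together with the receptor Vsig4, had 197 and 494 CPM in Irf2 KO, 165 and 249 CPM in Nr4a1 KO, 137 and 140.0 CPM in the libraries labelled Bcl6 cKO, and 142 and 129 CPM in wild type. Both Irf2 KO libraries exceeded both wild-type libraries, and the second stood far above the first. The log2 fold change was 1.21 ± 0.36 (limma adjusted p = 0.0452), and it rested on the second Irf2 KO library, without which it was 0.54 (adjusted p = 0.164). It also missed the threshold without wild type 1 (adjusted p = 0.116), without wild type 2 (0.167), without either library labelled Bcl6 cKO (0.0799 and 0.0793), with the 2 groups fitted alone (0.0664) and with no trend in the prior variance (0.0967).

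Ms4a7, the macrophage-associated member, was scarce in these cells, with 2.22 and 3.07 CPM in Irf2 KO (107 and 167 reads), 5.75 and 5.92 CPM in Nr4a1 KO (293 and 283 reads), 4.44 and 4.95 CPM in the libraries labelled Bcl6 cKO (274 and 258 reads), and 4.51 and 6.67 CPM in wild type (261 and 342 reads). The Irf2 KO libraries were below all 6 others. Ms4a7 fell by 1.07 ± 0.27 on the log2 scale in Irf2 KO relative to wild type (limma adjusted p = 0.0260). The call was lost without Irf2 KO 1 (log2 fold change -0.84, adjusted p = 0.136), without wild type 2 (-0.79, adjusted p = 0.151) and with the 2 groups fitted alone (adjusted p = 0.0533).

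Ms4a4c, described as interferon-inducible in mouse myeloid cells, had 971 and 1139 CPM in Irf2 KO, 466 and 997 CPM in Nr4a1 KO, 465 and 543 CPM in the libraries labelled Bcl6 cKO, and 540 and 576 CPM in wild type. Both Irf2 KO libraries were above both wild-type libraries, while the Nr4a1 KO pair was 1.10 log2 units apart and straddled them. The Irf2 KO difference from wild type, 0.91 ± 0.29 on the log2 scale, narrowly missed the threshold (limma adjusted p = 0.0516). It passed in 9 of 17 alternative settings, among them the adjusted p of 0.0267 in the authors' deposited table.

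Ms4a6b had 494 and 690 CPM in Irf2 KO, 317 and 724 CPM in Nr4a1 KO, 401 and 465 CPM in the libraries labelled Bcl6 cKO, and 309 and 406 CPM in wild type. Its Irf2 KO libraries were above both wild-type libraries and its Nr4a1 KO libraries, 1.19 log2 units apart, were on either side of them. The log2 fold change of Irf2 KO over wild type was 0.72 ± 0.34 (limma adjusted p = 0.157), not past the threshold. With the replicate number as a term in the fit, Ms4a4c and Ms4a6b also passed, at limma adjusted p = 0.0224 and 0.0404, which made 5 members. Both also passed without either Nr4a1 KO library, where their fold changes were the same. The Ms4a6b difference passed in 4 of 17 alternative settings, with log2 fold changes of 0.48 to 0.96.

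The abundant Ms4a6c and the close copy of Ms4a4c, Ms4a4b, which is known from mouse T cells, stayed within narrow ranges. Ms4a6c had 1071 and 1265 CPM in Irf2 KO, 1175 and 1471 CPM in Nr4a1 KO, 1177 and 1178 CPM in the libraries labelled Bcl6 cKO, and 1154 and 1073 CPM in wild type. Its Irf2 KO difference from wild type was 0.07 ± 0.13 (95% limits -0.22 to 0.35, limma adjusted p = 0.744). Ms4a4b had 58.6 and 59.8 CPM in Irf2 KO, 71.3 and 84.0 CPM in Nr4a1 KO, 63.5 and 60.4 CPM in the libraries labelled Bcl6 cKO, and 74.1 and 57.9 CPM in wild type, with Irf2 KO at -0.15 ± 0.14 relative to wild type (95% limits -0.47 to 0.18, adjusted p = 0.491). Irf2 KO and wild type overlapped for both genes. Both Nr4a1 KO libraries and both labelled Bcl6 cKO were above wild type for Ms4a6c, by 0.24 ± 0.13 and 0.08 ± 0.13 on average, neither past the threshold (adjusted p = 0.239 and 0.760). BE692007 overlaps Ms4a6c on the opposite strand, 45.8% of the 100-base windows of Ms4a6c transcripts also occur in another gene's transcripts, and the labels do not say whether the counting used strand, so reads of these 2 genes may not be fully separated. BE692007 differed from wild type by -0.33 ± 0.12 in Irf2 KO (adjusted p = 0.0726). For Ms4a4b and Ms4a4c only 0.473% and 1.66% of windows were shared with other genes.

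**Figure D2:**
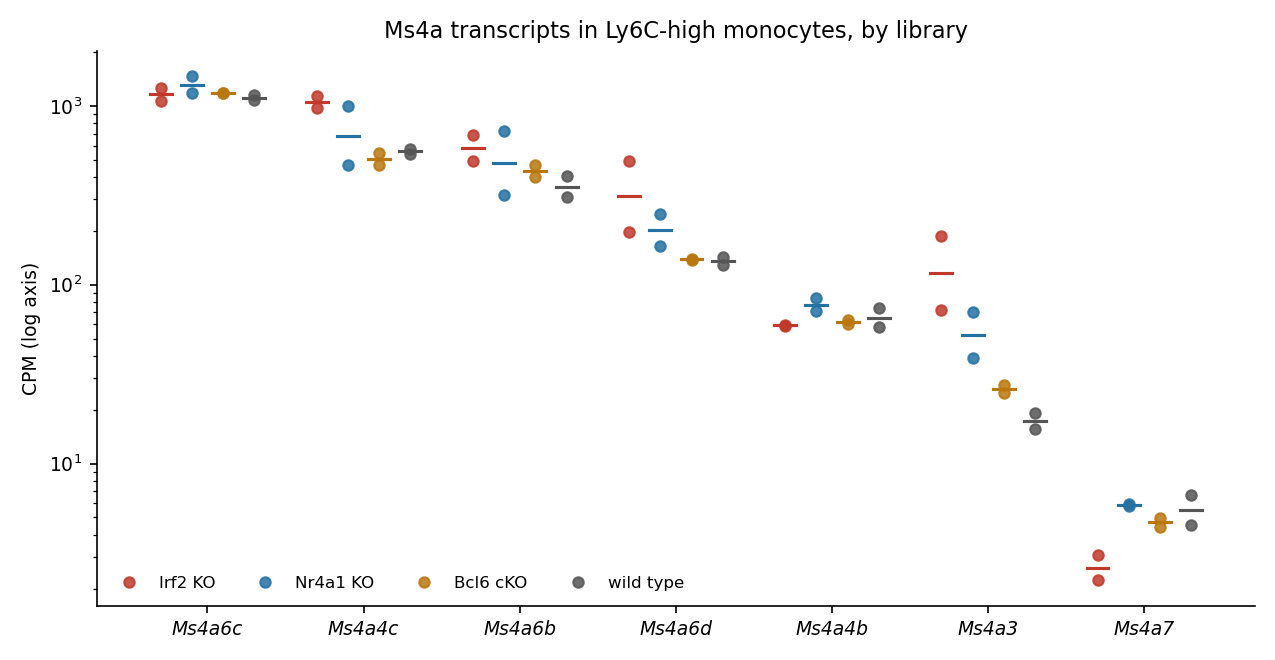
CPM on a log axis for each Ms4a member, with 1 point per library and a bar at the geometric mean of each genotype, in the order Irf2 KO, Nr4a1 KO, libraries labelled Bcl6 cKO, wild type. Ms4a3 steps down over these groups, with 72.6 and 188 CPM in Irf2 KO and 15.5 and 19.1 CPM in wild type, whereas Ms4a7 is lowest in Irf2 KO, at 2.22 and 3.07 CPM.

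In Nr4a1 KO monocytes Ms4a3 was the 1 member called against wild type, among 15.1% of all tested genes called and 3.94% called as higher. Its log2 fold change was 1.61 ± 0.41 (limma adjusted p = 0.0323), a 3.05-fold difference. The other members stood at 0.09 to 0.59 relative to wild type and none passed. The members' median was 0.29, beside 0.01 over all tested genes. Centring each library on its median raised all differences of this comparison by 0.13. The Ms4a3 call was lost in 8 of 17 alternative settings: without Nr4a1 KO 2 (log2 fold change 1.18, adjusted p = 0.119), without wild type 1 (1.46, 0.134), without wild type 2 (1.76, 0.0901), without either library labelled Bcl6 cKO (0.0646 and 0.0640), with no trend (0.0802), with limma voom on the recovered reads (0.0743), and in the authors' deposited table (0.106).

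In the libraries labelled Bcl6 cKO none of the 7 members was called against wild type by limma, where 5.01% of all tested genes were, none had an unadjusted p under 0.05, and limma voom called none. Ms4a3 had the largest of the 7 differences, 0.60 ± 0.41 (95% limits -0.33 to 1.53, adjusted p = 0.446), and both of its libraries were above both wild-type libraries. The other members stood between -0.23 and 0.29. The limits reached 1.05 for Ms4a6b and 0.86 for Ms4a6d, so a change of this size could not be told from the spread between libraries.

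**Figure D3:**
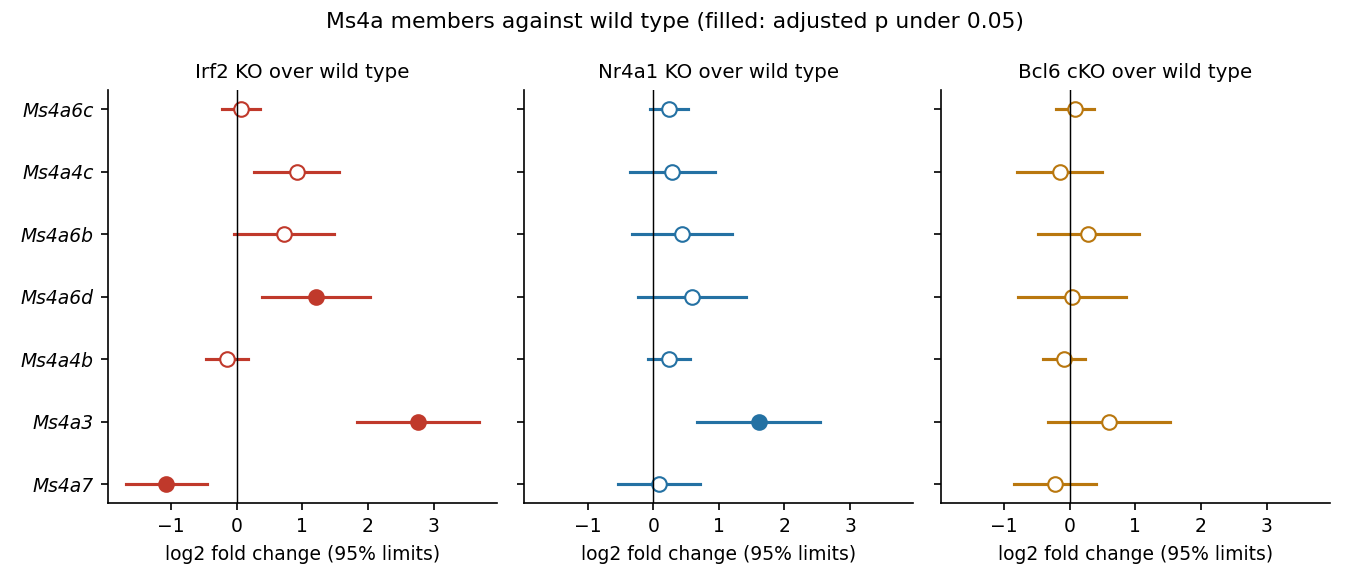
Log2 fold change over wild type with 95% limits for each Ms4a member, in Irf2 KO (left), Nr4a1 KO (middle) and the libraries labelled Bcl6 cKO (right), with filled points where the limma adjusted p was under 0.05. Ms4a3 lies at 2.76, 1.61 and 0.60 in the 3 panels, and the limits of Ms4a6c and Ms4a4b are the narrowest.

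The 3 knockouts were compared with one another to see whether the member changes differed between genotypes. Ms4a7 fell by 1.16 ± 0.27 in Irf2 KO relative to Nr4a1 KO (limma adjusted p = 0.0176), the only call of the 7, where 22.3% of all tested genes were called and 9.94% were lower. It was lost without Irf2 KO 1 (log2 fold change -0.93, adjusted p = 0.102) and without Nr4a1 KO 1 (-1.18, 0.0515). Ms4a3 differed by 1.15 ± 0.41 between Irf2 KO and Nr4a1 KO (adjusted p = 0.0765), not past the threshold. It passed in 3 of 16 alternative settings, with the replicate block (adjusted p = 0.0328), without Irf2 KO 1 (log2 fold change 1.84, adjusted p = 0.0104) and without Nr4a1 KO 2 (1.58, 0.0324), and stood at 0.47 without Irf2 KO 2 (0.400) and 0.72 without Nr4a1 KO 1 (0.299). In the libraries labelled Bcl6 cKO, Ms4a3 fell by 2.16 ± 0.41 relative to Irf2 KO (adjusted p = 0.0172), the 1 member called where 9.55% of all tested genes were called and 3.87% were lower. This call was lost without Irf2 KO 2 (log2 fold change -1.48, adjusted p = 0.0609), without either library labelled Bcl6 cKO (0.0967 and 0.128) and with no trend (0.0576). Ms4a4c differed by -1.07 ± 0.29 there (adjusted p = 0.0510), and it passed under 7 of 16 alternatives. Between the libraries labelled Bcl6 cKO and Nr4a1 KO limma called no member, where 5.75% of all tested genes were called. Ms4a3 was the 1 member with an unadjusted p under 0.05 there (log2 fold change -1.01 ± 0.41, adjusted p = 0.227), and limma voom called none.

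Across the 8 libraries some members moved together and others did not, as described by Pearson's r of log2 CPM without a test, since libraries of a genotype are not independent. Ms4a3 and Ms4a6d had r = 0.94, Ms4a4c and Ms4a6b 0.86, and Ms4a3 and Ms4a4c 0.85. The close copies Ms4a4b and Ms4a4c had r = -0.002, and Ms4a3 and Ms4a7 had -0.56. The pairs with the highest r share a high second Irf2 KO library or a high second Nr4a1 KO library. In the second Nr4a1 KO library Ms4a4c, Ms4a6b and Ms4a3 were 1.10, 1.19 and 0.86 log2 units above the first, where the median gap of tested genes was 0.22. The cause of these gaps was not tested.

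**Figure D4:**
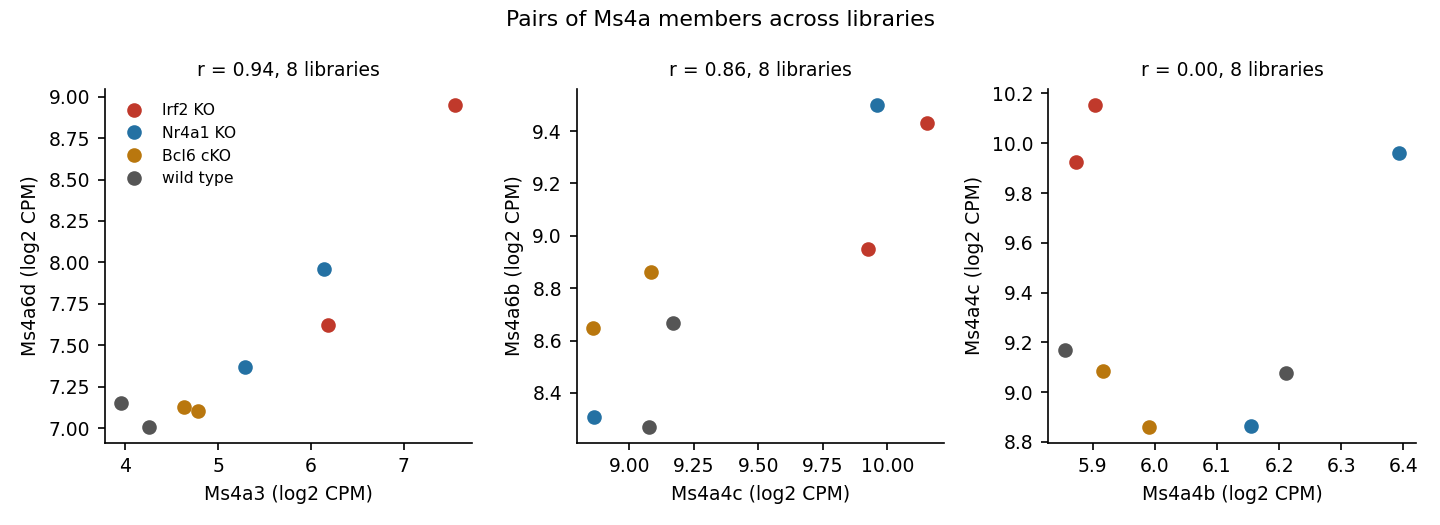
Log2 CPM of 3 pairs of Ms4a members, with 1 point for each of the 8 libraries coloured by genotype. Ms4a3 and Ms4a6d (left, r = 0.94) rise along a line that ends at the second Irf2 KO library, Ms4a4c and Ms4a6b (middle, r = 0.86) are high in both Irf2 KO libraries and 1 Nr4a1 KO library, and Ms4a4b and Ms4a4c (right) show no line.

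Among 8839 protein-coding genes outside the family with a mean of at least 4 CPM, those nearest in pattern to Ms4a3 over the 8 libraries were Ssr2 (r = 0.98), a subunit of the translocon-associated complex, and Mrpl35 (0.98), a mitochondrial ribosomal protein. Emg1 and Prdx2 were nearest to Ms4a6d (0.98 and 0.97), Lsm8 and Sp110 to Ms4a4c (0.98 and 0.97), and Tgtp2 and Rpl9-ps6 to Ms4a6b (0.97 and 0.96). Sp110 and Tgtp2 are interferon-inducible genes. Dusp22 and Abhd4 were nearest to Ms4a7 (0.98 each). Zfp955a and Lysmd1 were nearest to Ms4a4b (0.96 and 0.93), and Slc31a1 and Pnp2 to Ms4a6c (0.96 and 0.95). Pearson's r takes no account of the size of a change. Ssr2 differed by 0.46 ± 0.11 in Irf2 KO over wild type, where Ms4a3 differed by 2.76 ± 0.41. No test was made of these values of r.

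The other Ms4a genes of the table were Ms4a1, Ms4a4a, Ms4a4d and Ms4a8a. Ms4a4a, a macrophage gene, had 17.8 and 84.5 CPM in Irf2 KO, 272 and 136 CPM in Nr4a1 KO, 94.2 and 101.04 CPM in the libraries labelled Bcl6 cKO, and 178 and 169 CPM in wild type. It fell by 2.16 ± 0.60 in Irf2 KO relative to wild type (limma adjusted p = 0.0346), but without Irf2 KO 1 the difference was -1.04 (adjusted p = 0.0909), and the call was also lost without wild type 1 or 2 (0.116 and 0.118) and without either library labelled Bcl6 cKO (0.0654 and 0.0649), with no trend (0.0788) and with the 2 groups fitted alone (0.0533). It was also called as lower in Irf2 KO than in Nr4a1 KO, at -2.31 ± 0.60 (adjusted p = 0.0257). There the difference was -1.19 without Irf2 KO 1 (0.0556), -3.43 without Irf2 KO 2 (0.00123) and -1.81 without Nr4a1 KO 1 (0.102), and the call was also lost without either library labelled Bcl6 cKO (0.0520 and 0.0516), with no trend (0.0669) and with the 2 groups fitted alone (0.0925). Ms4a8a and Ms4a4d were not called in any of the 6 comparisons, and Ms4a1 lay under the filter at 0.403 to 1.39 CPM. Tmem176a and Tmem176b, which encode distant relatives with the same fold, stood at -0.32 ± 0.18 (adjusted p = 0.245) and -0.89 ± 0.27 (adjusted p = 0.0476) in Irf2 KO relative to wild type.

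Within 573 kb between the outermost Ms4a genes of the table lie 17 of its genes, 6 of them outside the family. Counting these and the 5 nearest tested genes on either side, 3 of 14 tested genes outside the family were higher in Irf2 KO than in wild type (AW112010 at 3.04 ± 0.83, Gm5511 at 1.29 ± 0.36 and Mrpl16 at 0.61 ± 0.14), where 9.26% of all tested genes were, and 1 was lower (Stx3 at -1.07 ± 0.16), where 12.3% were. AW112010 had 68.3 and 318.6 CPM in Irf2 KO against 16.5 and 19.4 CPM in wild type. Its log2 fold change was 1.93 without Irf2 KO 2 and 4.15 without Irf2 KO 1. The AW112010 call was lost without Irf2 KO 2, without either wild-type library and without either library labelled Bcl6 cKO. It was also lost with no trend (limma adjusted p = 0.0771), with limma voom (0.0656) and in the authors' deposited results (0.0520). The call of Gm5511 was lost without either Irf2 KO library (log2 fold change 1.28 and 1.31), without wild type 2 (0.95) and without either library labelled Bcl6 cKO. It was also lost with the 2 groups fitted alone (limma adjusted p = 0.0652). The call of Mrpl16 was lost without Irf2 KO 2 (log2 fold change 0.48), without either wild-type library (0.64 and 0.58) and with no trend (limma adjusted p = 0.0545). In Nr4a1 KO 4 of the 14 were lower than in wild type, at one end (Tmem132a at -2.37 ± 0.28, Ccdc86 at -1.28 ± 0.21, Prpf19 at -1.20 ± 0.19 and Tmem109 at -0.32 ± 0.09), and Osbp at the other end was higher (0.61 ± 0.13), where 15.1% of all tested genes were called in either direction. Tmem109 lost its call when any library but Nr4a1 KO 1 was left out. It also lost it with no trend (limma adjusted p = 0.131), quantile normalization (0.0871), median centring (0.187) and the 2 groups fitted alone (0.119), and in the authors' deposited results (0.0646). Osbp lost its call without wild type 2 (log2 fold change 0.58), without Nr4a1 KO 1 (0.51) and with the 2 groups fitted alone (limma adjusted p = 0.0627). In the libraries labelled Bcl6 cKO limma called 0 of the 14 against wild type, where 5.01% of all tested genes were called, 3 had an unadjusted p under 0.05, and limma voom called 0.

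**Figure D5:**
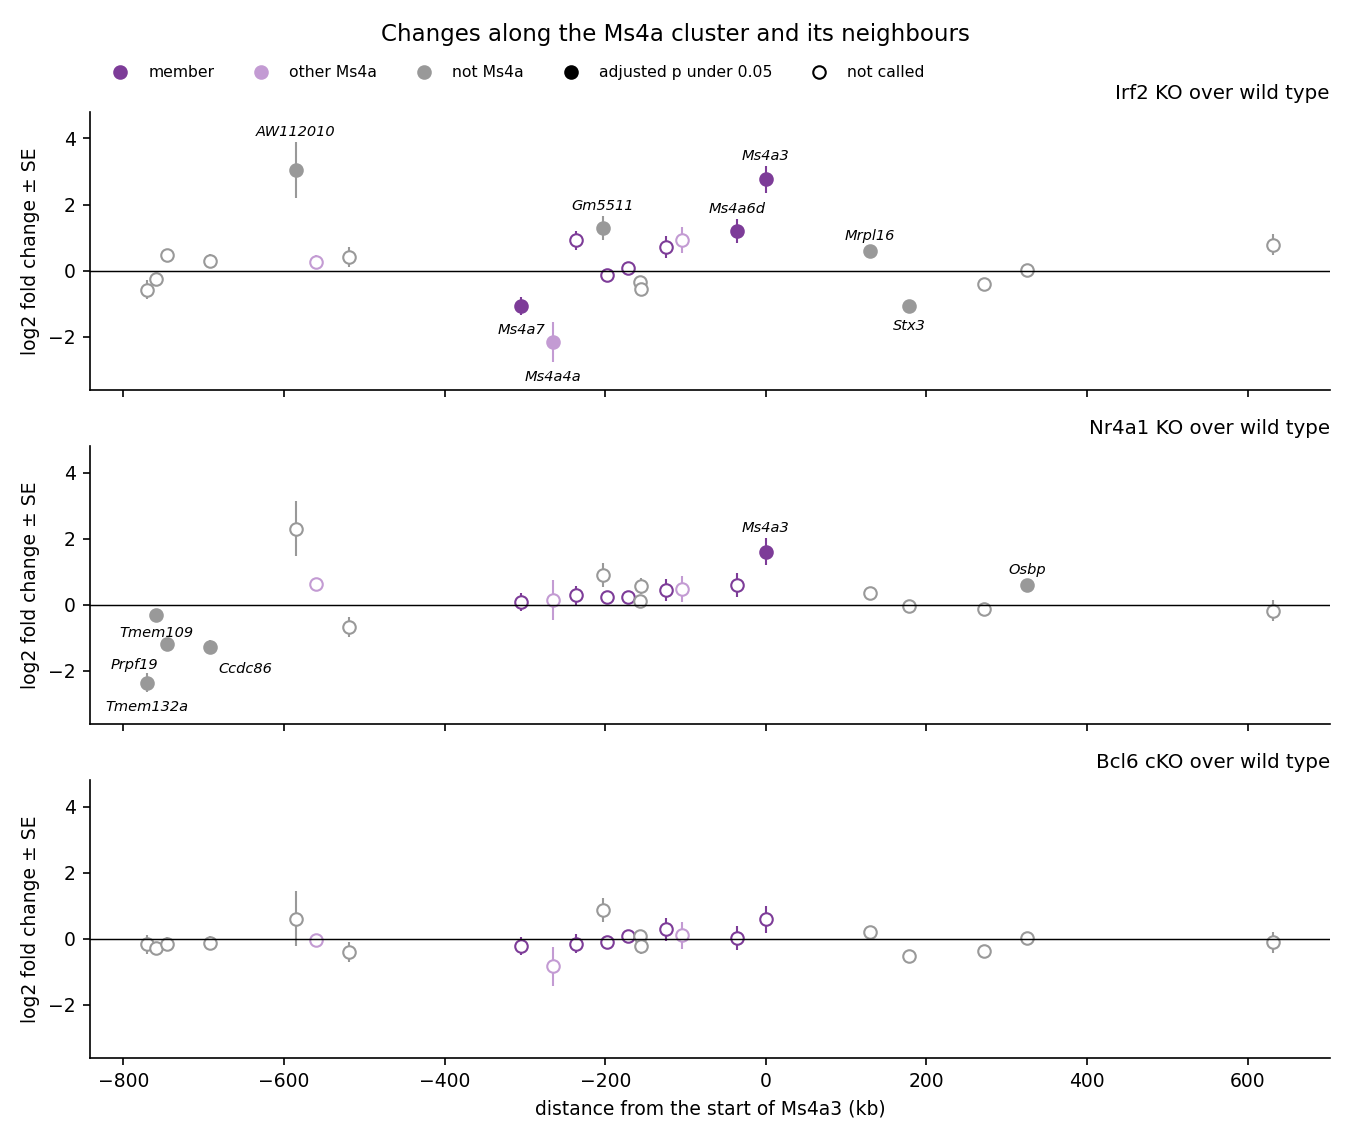
Log2 fold change over wild type ± SE against distance from the start of Ms4a3 in kb, for tested genes of the Ms4a cluster and its neighbours, in Irf2 KO (top), Nr4a1 KO (middle) and the libraries labelled Bcl6 cKO (bottom). Filled and named genes had a limma adjusted p under 0.05. Ms4a3 at 0 kb is high in the upper panels (2.76 and 1.61), and the called genes around it lie on both sides of 0.

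Genes of other cell types moved between the same libraries. Granulocyte-monocyte progenitor genes, 13 tested of 15 listed, summed to 3876 to 4681 CPM in Irf2 KO, 2140 to 2195 in Nr4a1 KO, 2444 to 2762 in the libraries labelled Bcl6 cKO, and 2196 to 2283 in wild type. In Irf2 KO relative to wild type 6 of them were higher, among them the granule proteases Ctsg (1.69 ± 0.14) and Prtn3 (1254 and 1805 CPM in Irf2 KO against 507 and 558 CPM in wild type), and 2 were lower, Cebpe (-1.93 ± 0.19) and Cd34 (-1.60 ± 0.28), where 9.26% of all tested genes were higher and 12.3% lower. None was at 0 reads in any library. In Nr4a1 KO, where Ms4a3 was also called, 2 of the 13 were higher than in wild type, among them Ctsg (0.66 ± 0.14), where 3.94% of all tested genes were, Cebpe was lower, and Prtn3 stood at -0.30 ± 0.17 (limma adjusted p = 0.267). Macrophage genes summed to 159 to 182 CPM in Irf2 KO against 274 to 276 CPM in wild type, with Adgre1 (-1.16 ± 0.11) and Apoe (-3.26 ± 0.50) lower of 9 tested, against 12.3% of all tested genes. Ms4a7 was also lower. Neutrophil genes summed to 361 to 928 CPM in Irf2 KO against 1585 to 1887 CPM in wild type, with 6 of 11 lower. Among 18 nonclassical monocyte genes, 16 tested, 9 were lower and 2 higher in Irf2 KO than in wild type. Conventional dendritic cell genes summed to 28.7 to 35.5 CPM in Irf2 KO against 81.3 to 89.3 CPM in wild type, with 3 of 5 lower. Plasmacytoid dendritic cell genes summed to 54.1 to 61.9 CPM in Irf2 KO against 77.1 to 87.5 CPM in wild type, with 3 of 4 lower. B cell genes summed to 38.1 to 43.8 CPM in Irf2 KO against 88.3 to 89.0 CPM in wild type, with 3 of 4 lower. Erythroid genes summed to 23.6 to 33.0 CPM in Irf2 KO against 33.5 to 34.1 CPM in wild type, with 4 of 5 lower and 1 higher. Basophil and mast cell genes summed to 6.66 to 16.1 CPM in Irf2 KO against 26.9 to 27.7 CPM in wild type, with 1 of 3 lower, and T and NK cell genes to 17.4 to 17.5 CPM in Irf2 KO against 11.1 to 15.0 CPM in wild type, with the 1 tested gene, Nkg7, higher. Nkg7 is also on the progenitor list, where it is among the genes counted as higher in Irf2 KO and in Nr4a1 KO. In the libraries labelled Bcl6 cKO neutrophil genes summed to 842 to 1007 CPM and macrophage genes to 240 to 248. B cell genes summed to 43.4 to 54.6 CPM, erythroid genes to 19.0 to 26.3 and basophil and mast cell genes to 12.0 to 20.3. These were below wild type. Conventional dendritic cell genes, at 68.9 to 86.2 CPM, overlapped wild type. Plasmacytoid dendritic cell genes (89.7 to 90.7 CPM) and T and NK cell genes (22.4 to 24.0 CPM) were above it. The part of these gene lists in the Ms4a differences was not tested.

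Of 9 tested genes whose products have been reported in human or mouse work as partners of MS4A proteins, Fcer1g, the signalling chain shared by Fc receptors, fell by 0.33 ± 0.09 in Irf2 KO relative to wild type (limma adjusted p = 0.0280), and Cdk2, a cell cycle kinase reported in complex with human MS4A3, fell by 0.94 ± 0.12 in Nr4a1 KO relative to wild type (adjusted p = 9.37e-04). Each was the 1 call among the 9, where 21.6% and 15.1% of all tested genes were called. In the libraries labelled Bcl6 cKO limma called 0 of the 9 against wild type, where 5.01% of all tested genes were called, 1 had an unadjusted p under 0.05, and limma voom called 0. Cdkn3, the phosphatase reported to bind human MS4A3, stood at 0.06 ± 0.11 in Irf2 KO and -0.16 ± 0.11 in Nr4a1 KO relative to wild type (adjusted p = 0.724 and 0.389).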

How the data were processed

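RNA from sorted Ly6C-high monocytes was made into cDNA from 10 ng with the SMARTer Ultra Low kit and read as pairs of 150 bases, per the labels. The submitters' processing notes name STAR, Subread featureCounts, Salmon, limma and genome build mm10, with no settings. The authors deposited a merged table of log2 CPM per gene and library with fold changes and p-values of their own comparisons. Each log2 value followed log2 of the reads plus 0.5 as CPM, and whole reads were recovered for 100% of values within 0.01, so depth per library is known. Of 13789 rows, 45 repeats were left out. 0 sample columns were left unmapped.

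The deposited log2 values were fitted with limma 3.58.1 (R 4.3.3) with 4 group means over all 8 libraries, moderated with a trend (4 residual and 4.66 prior degrees of freedom), over 12752 genes whose geometric mean reached 1 CPM. P-values were adjusted over all of these by Benjamini-Hochberg in each comparison, at 0.05. Fold changes are differences of mean log2 CPM ± SE. The fit was tested on simulated data. Lengths, positions and coding sequences came from GENCODE M21, in place of the protein table planned, which was not used here. The members and lists were chosen with earlier results of these data known. Text names the 7 members, the targeted genes, other Ms4a genes, up to 4 called genes of a list with the largest change in Irf2 KO, genes reported as partners, 2 like genes per member and 5 flanking genes per side. Alternatives changed the trend, the filter, the scaling, the groups fitted, the replicate block and each library, or took limma voom on recovered reads (chosen after seeing the data) or the authors' deposited results.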

Additional observations from a re-analysis of the deposited data

How the results depend on the processing

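Ms4a3 in Irf2 KO over wild type was the 1 of 6 member calls that passed the threshold in all its alternatives, and 11 of the 36 member comparisons not called passed in at least 1. Bcl6 cKO here means the libraries labelled so. With 2 libraries a genotype, many calls changed when a single library was left out. Each such fit also has fewer residual degrees of freedom. Some calls were lost without a library outside the comparison, which leaves the fold change as it was. Without each library in turn, the members called ranged from 1 to 5 in Irf2 KO over wild type, 0 to 3 in Nr4a1 KO over wild type, 0 to 4 in Irf2 KO over Nr4a1 KO, 0 to 2 in Bcl6 cKO over Irf2 KO and 0 to 1 in Bcl6 cKO over Nr4a1 KO. All tested genes called ranged in these comparisons from 1076 to 3190, 1065 to 1775, 1460 to 2705, 138 to 1647 and 250 to 859, and from 33 to 917 in Bcl6 cKO over wild type. With the 2 groups fitted alone, calls numbered 1054 in Nr4a1 KO over wild type, 1770 in Irf2 KO over Nr4a1 KO, 1947 in Bcl6 cKO over Irf2 KO, with 3 members, and 484 in Bcl6 cKO over Nr4a1 KO. With no trend, 259 genes were called in Bcl6 cKO over wild type and 537, with 0 members, in Bcl6 cKO over Irf2 KO, and 0 members in Nr4a1 KO over wild type, as also with limma voom and in the authors' deposited results. Members called in Bcl6 cKO over Irf2 KO were 2 with the filter at 4 CPM, with median centring and with limma voom. Median centring moved the median of all genes by 0.10 in Irf2 KO and 0.13 in Nr4a1 KO over wild type. With the replicate block, members called were 5 in Irf2 KO over wild type, 2 in Irf2 KO over Nr4a1 KO and 2 in Bcl6 cKO over Irf2 KO. Replicate numbers share only a number (correlations of their deviations -0.003 to 0.18). The cause of these changes was not tested. No called member comparison changed sign, and 14 others did. Log2 fold changes without each library in turn ran from -0.32 to 0.032 for Ms4a4b in Irf2 KO over wild type and -0.26 to 0.10 in Bcl6 cKO over wild type (0.0078 with quantile normalization). They ran from -0.26 to 0.84 for Ms4a4c in Nr4a1 KO over wild type and -0.99 to 0.11 in Bcl6 cKO over Nr4a1 KO. For Ms4a6b they ran from -0.16 to 1.03 in Nr4a1 KO over wild type, -0.31 to 0.88 in Irf2 KO over Nr4a1 KO and -0.74 to 0.45 in Bcl6 cKO over Nr4a1 KO. For Ms4a6c they ran from -0.055 to 0.19 in Irf2 KO over wild type, -0.32 to 0.0030 in Bcl6 cKO over Nr4a1 KO and -0.10 to 0.14 in Bcl6 cKO over Irf2 KO (-0.0020 with quantile normalization, -0.016 with median centring). For Ms4a6d they ran from -0.035 to 0.11 in Bcl6 cKO over wild type and -0.045 to 1.29 in Irf2 KO over Nr4a1 KO, and for Ms4a7 from -0.19 to 0.37 in Nr4a1 KO over wild type and -0.51 to 0.056 in Bcl6 cKO over wild type.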
